A study of Mus musculus with 6 samples.

Results

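The mitosis and spindle genes are a set of 40 genes chosen by name for their work in cell division, and all 40 were found among the 23094 named rows of the deposited expression table. They were measured in erythroid cells of mouse fetal liver at embryonic day 13.5, sorted as positive for 2 surface proteins, CD71, which takes up iron-loaded transferrin, and Ter119, which marks the red cell lineage. Of the 6 libraries, 3 carry the label Tfam KO and 3 the label Tfam WT, all on the strain C57BL/6. Tfam is a mitochondrial protein that coats the organelle's DNA and is needed to transcribe it, and the comparison asks which transcripts differ in erythroblasts when it is deleted. The labels name neither the Cre driver nor the allele. Nor do they tie the replicates to embryos, so the spread that the p-values rest on could be partly technical. Each group mixes 2 patterns of sex-linked RNA (given below), so its libraries do not all come from the same sample.

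Cell division is driven by cyclin-dependent kinase 1 bound to A- and B-type cyclins. Its activation condenses chromosomes and builds the spindle, the spindle checkpoint holds anaphase until every kinetochore is attached, and the anaphase-promoting complex then marks securin and cyclin B for destruction. Many of the genes involved are silent in G1 and transcribed late in the cell cycle, through promoters that carry CCAAT boxes bound by NF-Y and a cell cycle homology region (CHR) bound by the MuvB complex. Maturing erythroblasts divide several times before they leave the cell cycle and lose their nucleus.

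Promoter windows were available for 34 of the 40 genes, running from 250 bases before to 50 bases after the start of the gene (RefSeq, build GRCm38.p6). They were searched on both strands for TTTGAA, the CHR letters, and for CCAAT. Matches to both can share a base, which was not checked. TTTGAA was in 25 of the 34 (73.5%), against 20.2% of the 27025 genes with such a window. CCAAT was in 25 (73.5%) against 41.1%, and both were in 21 (61.8%) against 7.97%. The windows of Ccnb1, Plk1 and Cdc20 are shown. These genes start, drive and end mitosis and were chosen together with Aurkb, which had no window. Capitals mark the matches.
Ccnb1, chr13:100786437-100786736, minus strand: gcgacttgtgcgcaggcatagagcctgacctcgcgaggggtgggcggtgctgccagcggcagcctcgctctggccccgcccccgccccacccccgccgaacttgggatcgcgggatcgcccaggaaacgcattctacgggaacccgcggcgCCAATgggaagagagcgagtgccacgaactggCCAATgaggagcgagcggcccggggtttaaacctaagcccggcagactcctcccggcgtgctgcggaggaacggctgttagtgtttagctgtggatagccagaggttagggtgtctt
Plk1, chr7:122159185-122159484, plus strand: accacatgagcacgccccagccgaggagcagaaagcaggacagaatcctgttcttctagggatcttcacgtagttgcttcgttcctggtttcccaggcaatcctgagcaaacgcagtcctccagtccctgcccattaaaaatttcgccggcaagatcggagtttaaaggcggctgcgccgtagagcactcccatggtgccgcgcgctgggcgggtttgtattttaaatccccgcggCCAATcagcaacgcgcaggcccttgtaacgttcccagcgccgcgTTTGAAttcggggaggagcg
Cdc20, chr4:118437294-118437593, minus strand: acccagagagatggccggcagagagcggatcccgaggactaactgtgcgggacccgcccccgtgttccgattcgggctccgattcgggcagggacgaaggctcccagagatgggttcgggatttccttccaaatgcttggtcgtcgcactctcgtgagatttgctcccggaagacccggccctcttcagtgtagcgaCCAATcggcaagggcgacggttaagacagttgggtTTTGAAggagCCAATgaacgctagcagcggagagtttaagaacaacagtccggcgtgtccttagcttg
Ccnb1 held 2 CCAAT boxes and no TTTGAA. Plk1 held 1 of each, with the TTTGAA just after the start, and Cdc20 held 2 CCAAT boxes with 1 TTTGAA between them. Ube2c and Top2a held 6 CCAAT each with TTTGAA, while Birc5, Mad2l1, Pttg1, Nuf2 and Nusap1 held neither. A match is a description of letters and not of a bound site.

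Library quality differed in ways that touch these genes. Values are RPKM, read counts scaled to transcript length and to mapped reads. WT replicate 3 had an RPKM sum of 814665, against 422534 to 535013 in the other 5 libraries, and its log2 values correlated at 0.930 to 0.962 across genes with theirs. The ribosomal RNA precursor Rn45s was at 5530 RPKM in WT replicate 3, against 782 to 1140 RPKM in the others. The nuclear RNA Malat1 was at 46.6 RPKM there, against 76.5 to 211 RPKM in the others. RNA of the Y-linked gene Eif2s3y was present in KO replicate 2, WT replicate 2 and WT replicate 3 and Xist, made from the inactive X chromosome, in KO replicates 1 and 3 and WT replicate 1, so both groups mix the 2 patterns. The labels give no sex. Tfam was at 5.92, 7.22 and 6.25 RPKM in the KO libraries and at 7.22, 8.44 and 5.72 RPKM in the WT libraries. These levels overlap and do not check the labels, so KO and WT name libraries by label only. The erythroid identity held in every library, with summed levels of 9 erythroid markers of 8742 to 12924 RPKM in KO and 10128 to 13497 RPKM in WT. A sum does not show single markers. By log2 fold change of KO over WT, 6 of the 9 were higher and 3 lower. Epor was the most negative, at -1.23, and at -0.95 without WT replicate 3. In 1 of the 9 every KO value lay below every WT value (2.36% of all rows), and none passed the test used below. Lymphoid markers (5 genes) summed to at most 0.677 RPKM and early progenitor markers (5 genes) to at most 3.34 RPKM in any library.

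Mitotic transcripts were abundant. All 40 genes passed the filter of a mean of at least 1 RPKM over the 6 libraries, as did 8302 rows of the table. Their median level was 76.3 RPKM, against 10.5 RPKM over all tested rows. Every one of the 40 lay above that second value, and 18 were in the top 10% of tested rows. Ube2c, the E2 enzyme of the anaphase-promoting complex, led with a mean of 1047 RPKM, followed by Cdc25b (551 RPKM), a phosphatase that activates Cdk1, by Birc5 (382), the survivin subunit of the chromosomal passenger complex, and by Ccna2 (379), cyclin A2. The libraries of Ube2c (724 to 1702 RPKM) lay above all those of Cdc25b (473 to 585 RPKM), while those of Birc5 (262 to 757 RPKM) overlapped those of both Cdc25b and Ccna2. The lowest were the kinesin Kif20b (12.6), the checkpoint kinase Ttk (17.9) and the kinesin Kif2c (27.1). Levels thus spanned a wide range within single pathways.

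**Figure D1:**
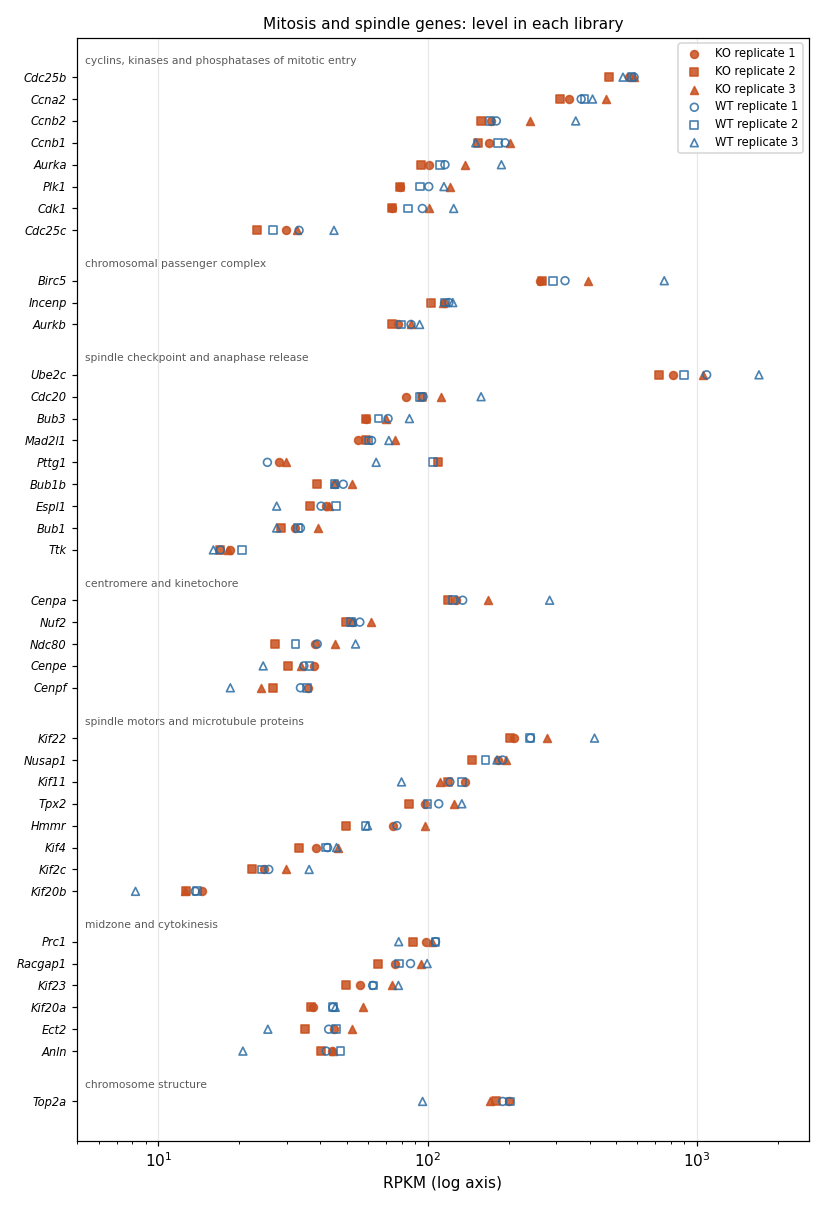
Level of each of the 40 genes in each library, in RPKM on a log axis, grouped by role; filled symbols are KO libraries, open symbols WT libraries, and the shape gives the replicate number. KO and WT symbols are mixed in nearly every row, WT replicate 3 (open triangle) often lies far to the right (Birc5, 757) or left (Anln, 20.6), and Pttg1 spreads from 25.4 to 109.

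No mitosis gene passed the test between KO and WT. With limma on log2(RPKM + 1), 0 of 40 had an adjusted p under 0.05, where 0% of the 8302 tested rows did. The lowest adjusted p among the 40 was 0.909, which was also the lowest of all rows. With the replicate number as a block 0 of 40 passed and 0 had an unadjusted p under 0.05, against 3.9% of all rows. At an unadjusted p under 0.05 there were 0 of 40, against 1.2% of all rows. Log2 fold changes ran from -0.47 to 0.31, with 27 genes lower and 13 higher in KO. Of all rows 53% were lower, and of the 3765 rows at least as abundant as the lowest of the 40, 66.9% were. The median of the 40 genes was -0.10, against -0.02 over all rows and -0.11 over the rows at least as abundant. It was 0.04 after quantile normalization. In these sorted populations fewer cells of a stage and less RNA per cell cannot be told apart. Without WT replicate 3 the fold changes drew closer together, from -0.27 to 0.09, with 32 genes lower and 8 higher. Their median was -0.06, against -0.01 over all rows (55% lower) and 0.00 over the rows at least as abundant (51.2% lower). Again 0 of 40 passed, where 0.012% of all rows did, and 0 had an unadjusted p under 0.05, against 2.2% of all rows. Of the 40 intervals (95%), 39 then lay wholly between -1 and 1. In this fit a change of 2-fold was outside the interval of every gene but Pttg1. Leaving out Pttg1, the bounds of these intervals reached from -0.77 to 0.73. With all libraries 33 of 40 intervals lay between -1 and 1, and apart from Pttg1 their bounds reached from -1.42 to 1.03. Without KO replicate 3 it was 27 of 40. In those fits a change of 2-fold stayed within the interval of several genes.

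**Figure D2:**
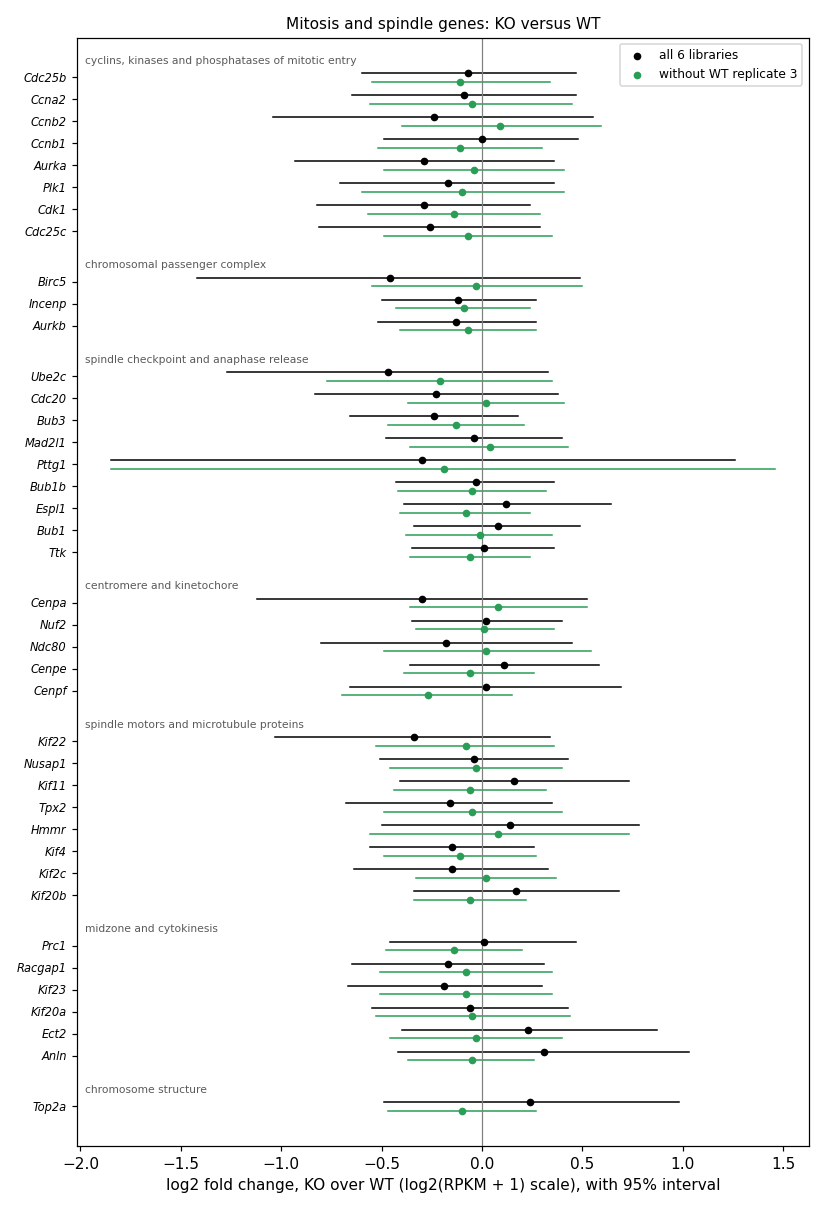
Log2 fold change of KO over WT for each of the 40 genes with its 95% interval from limma, for all 6 libraries (black) and without WT replicate 3 (green). All intervals include 0, the green ones are shorter for most genes, and the points of Birc5 (-0.46 and -0.03) and Anln (0.31 and -0.05) move to near 0 when WT replicate 3 is left out.

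The 8 cyclins, kinases and phosphatases of mitotic entry had fitted values of 0.00 or below, with a median log2 fold change of -0.21, and of -0.08 without WT replicate 3. None of them passed. Ccnb1, cyclin B1, was at 169, 154 and 203 RPKM in KO and at 194, 182 and 151 RPKM in WT, with a log2 fold change of 0.00 (SE 0.21). The groups overlap over nearly their whole range. Its kinase Cdk1 was at 73.7, 73.5 and 101 RPKM in KO and at 95.6, 84.8 and 125 RPKM in WT (log2 fold change -0.29, SE 0.23). Within each group the replicate numbered 3 was the highest. Plk1, the polo-like kinase of mitotic entry and spindle assembly, was at 79.0, 78.7 and 121 RPKM in KO and at 101, 93.7 and 115 RPKM in WT (log2 fold change -0.17, SE 0.23), with KO replicates 1 and 2 the lowest and KO replicate 3 the highest of all. Cdc25b was at 560, 473 and 585 RPKM in KO and at 585, 572 and 532 RPKM in WT (log2 fold change -0.07, SE 0.23), among the steadiest of the set. Cyclin B2 (Ccnb2), cyclin A2 (Ccna2), Aurora A (Aurka) and Cdc25c had log2 fold changes of -0.24, -0.09, -0.29 and -0.26, and of 0.09, -0.05, -0.04 and -0.07 without WT replicate 3.

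The chromosomal passenger complex corrects wrong attachments of the spindle to the kinetochores. Its kinase Aurkb was at 77.4, 73.5 and 87.0 RPKM in KO and at 86.8, 79.9 and 93.4 RPKM in WT (log2 fold change -0.13, SE 0.17). Incenp, the scaffold of the complex, was at 115, 103 and 114 RPKM in KO and at 120, 116 and 124 RPKM in WT, with means of 111 ± 6.98 and 120 ± 3.75 (SD, n = 3 each). It is the 1 gene of the 40 whose groups did not overlap, with KO lower, where 2.36% of all rows did so with KO lower and 2.18% with KO higher. Its log2 fold change was -0.12 (SE 0.16), the limma adjusted p was 0.909, and the gap between the nearest KO and WT libraries closed when libraries were centred on their medians. Birc5 was at 262, 266 and 393 RPKM in KO and at 324, 292 and 757 RPKM in WT. The value of WT replicate 3 set its log2 fold change, which was -0.46 (SE 0.41) with that library and -0.03 (SE 0.22) without it.

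Among genes of the spindle checkpoint and of anaphase release, 6 of 9 were lower and 3 higher in KO by fitted value, and none passed. The checkpoint kinases Bub1 and Ttk and the checkpoint proteins Bub1b and Mad2l1 had log2 fold changes of 0.08, 0.01, -0.03 and -0.04, and Bub3 had -0.24. Cdc20, which activates the anaphase-promoting complex, was at 83.2, 95.6 and 112 RPKM in KO and at 96.2, 93.4 and 158 RPKM in WT (log2 fold change -0.23, SE 0.26, and 0.02 without WT replicate 3). Ube2c was at 816, 724 and 1053 RPKM in KO and at 1088, 896 and 1702 RPKM in WT. It had the most negative log2 fold change of the set, -0.47 (SE 0.34, limma adjusted p = 0.909), and -0.21 (SE 0.24) without WT replicate 3. Within each replicate number the KO library was the lower, at 0.75, 0.81 and 0.62 of the WT level, and KO replicate 3 lay above WT replicate 2. Separase (Espl1), the protease that opens cohesin rings, had a mean of 40.5 ± 3.33 RPKM in KO and 37.8 ± 9.31 RPKM in WT (SD, n = 3 each).

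Centromere and kinetochore genes were 3 higher and 2 lower in KO by fitted value, and none passed. Cenpa, the histone H3 variant of centromeres, had means of 138 ± 26.1 RPKM in KO and 181 ± 89.5 RPKM in WT (SD, n = 3 each), with 284 RPKM in WT replicate 3. Ndc80 and Nuf2, which pair in the complex that grips microtubules, had log2 fold changes of -0.18 and 0.02. The large kinetochore proteins Cenpe and Cenpf had 0.11 and 0.02, and -0.06 and -0.27 without WT replicate 3.

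Spindle motors and microtubule proteins divided into 3 higher and 5 lower. Kif11, the kinesin that pushes the spindle poles apart, was at 138, 119 and 111 RPKM in KO and at 121, 134 and 80.0 RPKM in WT (log2 fold change 0.16, SE 0.24). WT replicate 3 was the lowest, and the remaining libraries overlapped. The row of the chromosome-arm motor Kif22 also names Maz and cannot be assigned to Kif22 alone. It stood at 210, 203 and 277 RPKM in KO and at 241, 240 and 417 RPKM in WT (log2 fold change -0.34, SE 0.29, and -0.08 without WT replicate 3). Tpx2, the activator of Aurora A, the depolymerase Kif2c and the chromokinesin Kif4 had -0.16, -0.15 and -0.15, and Hmmr, Nusap1 and Kif20b had 0.14, -0.04 and 0.17.

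Genes of the spindle midzone and of cytokinesis were 3 higher and 3 lower. Anln, the anillin of the contractile ring, was at 44.0, 40.3 and 44.7 RPKM in KO and at 42.0, 47.5 and 20.6 RPKM in WT. It had the largest positive log2 fold change of the set, 0.31 (SE 0.31), and -0.05 (SE 0.13) without WT replicate 3, which held less than any other library. Ect2, the exchange factor that activates RhoA at the cleavage site, was at 45.0, 34.9 and 52.4 RPKM in KO and at 42.9, 45.8 and 25.5 RPKM in WT (log2 fold change 0.23, SE 0.27, and -0.03 without WT replicate 3). Racgap1 and Kif23, the partners in centralspindlin, had -0.17 and -0.19, and the midzone bundler Prc1 and the kinesin Kif20a had 0.01 and -0.06. Top2a, the topoisomerase that untangles sister chromatids, was at 201, 180 and 170 RPKM in KO and at 190, 202 and 95.8 RPKM in WT (log2 fold change 0.24, SE 0.31, and -0.10 without WT replicate 3). As with Anln and Ect2, the WT library numbered 3 was the lowest of all.

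Levels in WT replicate 3 tended to be high for genes with short transcripts and low for genes with long ones. Of the 39 genes with a known length, 9 had transcripts under 2000 nt, and 8 of these were higher in WT replicate 3 than the mean of WT replicates 1 and 2, with a median ratio of 1.66. The 11 genes over 4000 nt had a median ratio of 0.63, and 3 of them were above 1, namely Cdk1 (1.38), Tpx2 (1.28) and Kif4 (1.09). The highest ratio, 2.46, was that of Birc5 (2140 nt), and Pttg1, the shortest at 741 nt, was at 0.99. The ratio was 2.19 for Cenpa (918 nt), 1.72 for Ube2c (967 nt) and 2.02 for Ccnb2 (1531 nt), against 0.49 for Top2a (5221 nt), 0.46 for Anln (4605 nt) and 0.53 for Cenpf (11130 nt). Over the 39 genes Pearson's r of log2 ratio with log2 length was -0.70 and Spearman's rho -0.71, and over 7837 rows of the table they were -0.64 and -0.69. These points share the same libraries and genes are not independent replicates. For KO replicate 3 over the mean of KO replicates 1 and 2, r was -0.10 and rho -0.35, and the short and long genes had median ratios of 1.32 and 1.06. Over the 7837 rows r was -0.20 and rho -0.31 for KO replicate 3. With a length trend removed from every library, fold changes ran from -0.40 to 0.19 and 0 genes passed (lowest limma adjusted p 0.953).

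**Figure D3:**
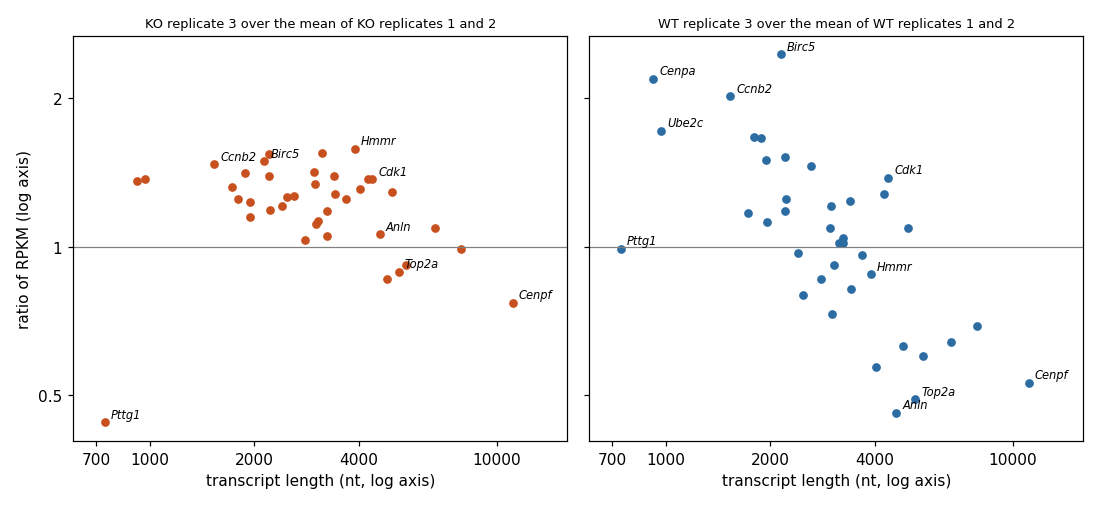
Ratio of the third replicate to the mean of replicates 1 and 2 of its group against transcript length, both on log axes, for the 39 genes with a length; KO left, WT right, and each point is a gene. In WT the short Cenpa, Ube2c and Ccnb2 lie at 1.72 to 2.19, below Birc5 at 2.46, and the long Anln, Top2a and Cenpf at 0.46 to 0.53, while in KO most genes lie above 1 and Pttg1 stands apart at 0.44.

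The KO libraries also differed among themselves. KO replicate 2 was the lowest KO library for 32 of the 40 genes and KO replicate 3 the highest for 32. Shares of all rows were not counted for this order. Median deviations from the mean of the 6 libraries were -0.08, -0.22 and 0.15 on the log2 scale in KO replicates 1 to 3, and 0.06, -0.03 and 0.14 in WT replicates 1 to 3. For rows at least as abundant they were -0.12, -0.13 and 0.10 in KO and -0.03, -0.08 and 0.29 in WT. The direction between groups differed with the replicate number. KO was below WT for 30 of 40 genes between the libraries numbered 1 (55.1% of all rows), for 38 of 40 between those numbered 2 (58.8%) and for 18 of 40 between those numbered 3 (51.3%). Median log2 ratios of KO over WT were -0.10, -0.23 and 0.08 for the 40 genes, against -0.03, -0.05 and -0.03 over all tested rows. KO was lower at all 3 numbers for 16 of 40 genes (20.1% of all rows) and higher at all 3 for 0 (10.8%).

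Without the libraries numbered 3 in both groups, fitted values were lower in KO for 38 of 40 genes by a small amount. Of all rows 59.9% were lower, and of the rows at least as abundant 72%. The median log2 fold change of the 40 genes was -0.15, against -0.07 for rows at least as abundant and -0.03 for all rows. Every KO value lay below every WT value for 20 of 40 genes and above for 0, where 22.8% and 11.4% of all rows did so. With quantile normalization of these 4 libraries 35 of 40 were lower, with a median of -0.08. The median was then -0.02 for rows at least as abundant (55.9% lower) and -0.01 for all rows (54.4% lower). Plk1 (-0.30, SE 0.10), Cdk1 (-0.29) and the kinesin Kif20a (-0.25) had unadjusted p-values under 0.05 in limma (4.65% of all rows did), and 0 of 40 passed after adjustment (lowest adjusted p 0.957, with 0.0241% of all rows passing). Without KO replicate 3 alone, groups did not overlap for 16 of 40 genes, all with KO lower (16.5% of all rows), and for 0 with KO higher (7.41%). Without WT replicate 3 alone 2 genes did not overlap with KO lower (5.9%) and 0 with KO higher (5.42%). None of the 40 passed limma without KO replicate 3 (0.012% of all rows). KO replicate 3 lay above the lowest WT library for 39 of 40 genes and above every WT library for 12. The shares of all rows were not counted for these 2 counts. The median deviation in KO replicate 3 was 0.15 for the 40 genes and 0.10 for rows at least as abundant.

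**Figure D4:**
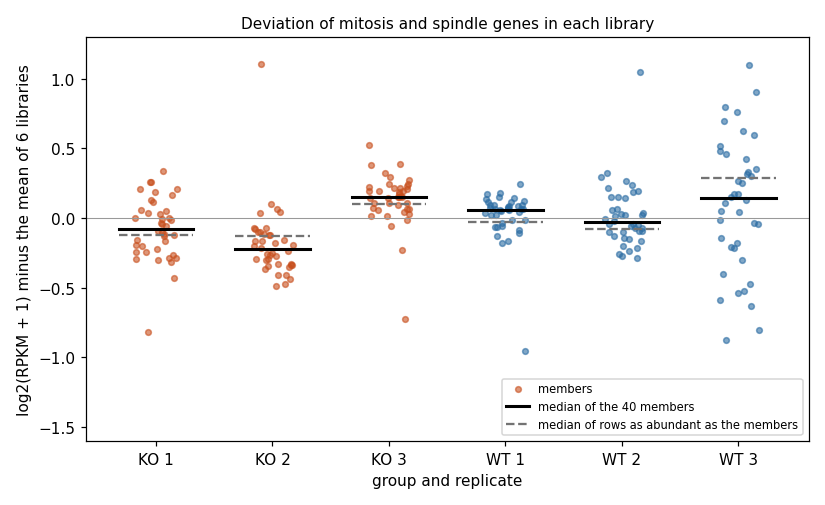
Deviation of each of the 40 genes from its mean over the 6 libraries, in log2(RPKM + 1), by group and replicate; each point is a gene, the black line is their median and the dashed line the median of the 3765 rows at least as abundant. The KO medians are -0.08, -0.22 and 0.15 and the WT medians 0.06, -0.03 and 0.14, the points of WT replicate 3 spread most widely, and the single points near 1 or -1 in the other libraries are mostly Pttg1.

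Pttg1, securin, which holds separase inactive until anaphase, varied more between libraries than any other gene of the set. It was at 28.0, 109 and 29.9 RPKM in KO and at 25.4, 105 and 64.4 RPKM in WT. A low and a high level occurred in both groups, so that the highest library exceeded the lowest 4.3-fold. Leaving out WT replicate 3, the coefficient of variation was 73.1%, against 25.8% for Hmmr, the next in order, and a median of 12.3% for the 40 genes. Of the 3765 rows at least as abundant as the lowest of the 40 genes, 2.74% had as wide a range. Espl1, the protease that securin holds, was at 41.9, 36.7 and 42.9 RPKM in KO and at 40.2, 45.6 and 27.5 RPKM in WT and did not follow it. The high libraries were those with Y-linked RNA. Eif2s3y was at 0.0227, 48.8 and 0 RPKM in KO and at 0, 34.7 and 39.5 RPKM in WT, and Xist at 122, 0.0253 and 59.3 RPKM in KO and at 93.1, 0.0776 and 0.023 RPKM in WT. Its log2 fold change of KO over WT was -0.30 (SE 0.66), and 0.29 (SE 0.25) in a fit with the sex-linked RNA of the library as a term. Neither passed (limma adjusted p = 0.915 and 1). Single libraries decided the value, which was -0.923 without KO replicate 2, 0.0411 without KO replicate 1, -0.00481 without KO replicate 3, -0.847 without WT replicate 1, 0.155 without WT replicate 2 and -0.194 without WT replicate 3. It was 0.811 with library weights. The part of sex in the level of Pttg1 was not tested.

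**Figure D5:**
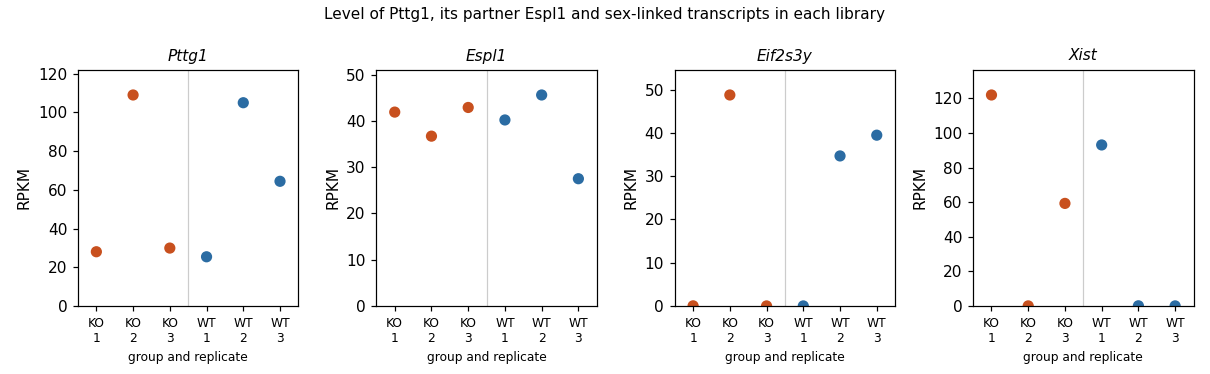
Level of Pttg1, of its partner Espl1, of the Y-linked Eif2s3y and of Xist in RPKM by group and replicate, with KO left of WT in each panel; each point is a library. Pttg1 is highest in KO replicate 2 (109), WT replicate 2 (105) and WT replicate 3 (64.4), where Eif2s3y is present and Xist at most 0.0776, and Espl1 stays between 27.5 and 45.6.

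In none of 6 related lists did a gene pass limma with all libraries (0% of all rows did). By fitted value 53% of all rows were lower in KO. Of 29 other kinetochore genes 21 were lower and 8 higher in KO, with a median log2 fold change of -0.12, and of 0.00 without WT replicate 3. Of 20 condensin and cohesin genes 15 were higher and 5 lower (median 0.12, and -0.02 without WT replicate 3). The anaphase-promoting complex and its partners had 11 of 15 lower (-0.18, and -0.01), and other spindle, G2 and cytokinesis genes 18 of 29 tested (-0.04, and -0.06). Transcription factors of mitotic genes had 9 of 18 lower (0.04, and -0.03) and DNA replication genes 15 of 21 (-0.13, and -0.01).

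The extremes of these lists moved with WT replicate 3 as well. The kinetochore scaffold Casc5 had the largest positive log2 fold change of its list (0.46) and Pmf1 the most negative (-0.50), and without that library they had -0.14 and -0.01. For the cohesin regulators Pds5a and Cdca5 the values were 0.43 and -0.32, and then -0.07 and -0.03. Anapc1, a scaffold of the anaphase-promoting complex, and Ube2s, an E2 enzyme of the complex, had 0.32 and -0.54, and then -0.04 and -0.02. Aspm and Cks1b had 0.27 and -0.46, and then -0.08 and -0.06. Rbl1, a pocket protein of the retinoblastoma family, and Nfyc, a subunit of NF-Y, had 0.41 and -0.32, and then -0.03 and -0.05. Pole, a replicative DNA polymerase, and Rfc4, a subunit of the clamp loader, had 0.21 and -0.34, and then -0.13 and -0.02. Mki67, the Ki-67 proliferation antigen, was at 578, 469 and 421 RPKM in KO and at 510, 573 and 311 RPKM in WT, with overlapping groups. The row of Foxm1, a driver of late cell cycle transcription that shares its row with 4933413G19Rik, was at 30.0, 27.0 and 38.6 RPKM in KO and at 31.2, 33.5 and 31.0 RPKM in WT, and Mybl2, its partner at these promoters, at 58.8, 57.7 and 76.9 RPKM in KO and at 66.9, 67.6 and 86.0 RPKM in WT.

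Transcripts of other cells were low beside these levels but not equal between libraries. Macrophage markers (10 genes, Cd163 listed at 0 in every library) summed to 4.46 to 11.3 RPKM in KO and to 12.0 to 18.6 RPKM in WT, so the groups did not overlap. All 6 of the macrophage genes that were tested were lower in KO by fitted value, with a median log2 fold change of -0.53, and 4 of them did not overlap (2.36% of all rows), but none passed limma. Megakaryocyte markers (7 genes) summed to 18.7 to 70.4 RPKM in KO and 34.2 to 60.6 RPKM in WT, hepatocyte markers (8 genes) to 11.2 to 114 RPKM and 32.1 to 73.6 RPKM, and neutrophil markers (7 genes) to 27.4 to 69.2 RPKM and 37.9 to 160 RPKM. KO replicate 3 held the lowest macrophage, megakaryocyte and hepatocyte sums and WT replicate 3 the highest neutrophil sum. Their part in the levels of the mitosis genes was not tested.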

How the data were processed

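The deposited table holds RPKM values, made by the authors with TopHat and Cufflinks on build mm9, per the submitters' processing notes. The sources used here state no versions, annotation or strand setting. Of 23119 rows, 25 with a number as name (0.158% of the RPKM sum) were left out. A member was matched on comma-split names, and 1 of the 40 shared its row. Depth in absolute terms is unknown. Low values lay on whole-read steps in 72.8% (WT replicate 1), 39.9%, 72% and 75.4% (KO replicates 1 to 3) of rows compared with WT replicate 2, which gives depths of 88.9%, 91.7%, 84.4% and 79% of that library, and WT replicate 3 (17.2%) was not resolved.

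The test was limma 3.58.1 (R 4.3.3) on log2(RPKM + 1), a scale that understates changes of low genes, over 8302 rows (mean RPKM 1 or more). It used a trended prior variance without a block, and p-values were adjusted by Benjamini-Hochberg over all rows at 0.05. Transcript lengths are medians over GENCODE M21 transcripts with a RefSeq identifier (95.1% of tested rows). Figures were drawn with matplotlib 3.10.9.

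Values in every library are given for members whose groups do not overlap, the 3 largest changes in each direction, the 3 highest levels and a fixed list of 8. Of each related list the extremes are named. Pttg1, Espl1 and the sex-linked genes were singled out with values already known. The members and lists were chosen with earlier results of these data known. The replicate numbers are shared by both groups, and deviations from group means correlated at 0.46, 0.17 and 0.53 between equal numbers, each above 0.1, and were 0.40 between KO replicate 1 and WT replicate 2. On this check, and on no label, equal numbers were treated as pairs in the fit with a replicate block and in comparisons by replicate number. The main test used no block. Deviations of 3 libraries from their own mean are not independent, so the check does not establish pairs.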

Additional observations from a re-analysis of the deposited data

How the results depend on the processing

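The count of 0 mitosis genes past the threshold was the same under all alternatives run (replicate block, pseudocounts of 0.1 and 5, no filter, a mean RPKM of at least 5, quantile normalization, median centring, length trend removed, no variance trend, library weights, and each library left out), and with the pairing by replicate block the lowest adjusted p was 0.715 and no call changed (0 rows). Over all rows, 60 passed with library weights, a fit that stopped before convergence and gave WT replicate 1 a weight of 21.4 against 0.0859 for WT replicate 3. Leaving out single libraries gave 0 to 2 rows, and leaving out replicate 3 of both groups gave 2, also with quantile normalization. Removing the length trend without WT replicate 3 gave 1. The median log2 fold change of the 40 genes was -0.104 and became 0.0399 with quantile normalization, the cause was not tested, and -0.185 to 0.0102 with single libraries left out (0.01 without KO replicate 2). Groups that did not overlap numbered 1 of 40 with all libraries (2.36% of all rows with KO lower, 2.18% with KO higher) and 0 with median centring. With single libraries left out they numbered 1 to 16. There were 16 without KO replicate 3 (16.5% and 7.41%), 4 without WT replicate 2 and 2 without WT replicate 3 (5.9% and 5.42%). Without replicate 3 of both groups there were 20 (22.8% and 11.4%), and 16 there with quantile normalization. With the length trend removed and without WT replicate 3 there were 3. Where no share stands beside a count, the share of all rows was not counted. Fewer libraries separate more often by construction. Fold changes of 17 of 40 genes changed sign without WT replicate 3 and 9 with quantile normalization. The alternatives that join 2 choices, and the term for sex-linked RNA, were chosen after seeing the data. Precision is limited by 3 libraries a group, and absolute depth is unknown.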

Other observations

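Some other genes shared the pattern of Pttg1 over the 6 libraries and were picked for it after their values were seen. Cd209c was at 2.36, 5.87 and 2.54 RPKM in KO and at 2.70, 6.67 and 5.01 RPKM in WT. Gpatch11 was at 2.69, 5.98 and 2.53 RPKM in KO and at 2.74, 5.71 and 4.36 RPKM in WT. In both genes, as in Pttg1, the libraries numbered 2 and WT replicate 3 were the high ones and the others lay close together. The Y-linked Ddx3y was at 0.0091, 13.0 and 0.0101 RPKM in KO and at 0, 12.5 and 3.38 RPKM in WT, so that WT replicate 3 lay between the extremes there too, while Eif2s3y was as high in WT replicate 3 (39.5) as in WT replicate 2 (34.7). Transcript lengths were 4600 nt for Ddx3y, 1836 nt for Eif2s3y and 741 nt for Pttg1. Levels in WT replicate 3 also varied with transcript length, and the part of length in these values was not tested.

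With the sex-linked RNA of each library as a term in the fit, 31 of the 40 mitosis genes were lower in KO by fitted value. Of all rows 54% were lower, and of the rows at least as abundant as the lowest of the 40, 69.6% were. The median log2 fold change of the 40 was -0.13, against -0.02 over all rows and -0.10 over the rows at least as abundant. Of the 40, 0 passed limma with adjustment, and 0 had an unadjusted p under 0.05 (54 of all 8302 rows did).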
